A study of Mus musculus with 10 samples.

Results

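Histone H3 marks were described at 8 genes of lactate production and transport in mouse retinal explants. The genes were *Ldha*, *Ldhb*, *Slc16a1*, *Slc16a3*, *Slc16a7*, *Slc16a8*, *Bsg* and *Emb*, chosen by symbol, and every peak annotated to them was kept whatever its values. They held 21 of the 108253 peaks measured, 9 of them among the 17144 promoter peaks, and were 8 of 25400 gene symbols. *Slc16a7* had 5 peaks, *Emb* 4, *Slc16a1* 3, *Ldha*, *Ldhb*, *Slc16a3* and *Bsg* 2 each, and *Slc16a8* 1.

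Retinas came from wild-type C57BL/6J mice at postnatal day 28, with the sclera and pigment epithelium taken off, and were kept for 48 h in medium with 5 mM or 25 mM glucose. CUT&Tag, in which an antibody tethers a transposase to a histone mark so that sequenced fragments map the mark, was run on 500000 dissociated cells per assay. Lactylation of lysine 18 (H3K18La) was profiled in 3 libraries at each glucose level, and lysine 27 acetylation (H3K27Ac) in 2, all labelled as batch 1. All groups share the strain, age and culture, uncultured retina was not analysed here, and the labels do not say how many animals stand behind a library. The explants are mixed tissue, so fewer cells of a type and less mark per cell cannot be told apart. The study describes a set of H3K18La peaks merged over ages of the developing, uncultured retina, and the table used here holds exactly as many peaks. No source names that set for the explant table. The study plots explant values of both marks at peaks from its H3K18La time course. For its principal component analysis of the explants it reports consensus peaks merged over both marks. If the table used here holds the developmental set, H3K27Ac was read at regions chosen for H3K18La, and regions marked in the explants alone are not listed.

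Glycolysis ends in pyruvate, which lactate dehydrogenase reduces to lactate with the regeneration of NAD+. The A subunit, encoded by *Ldha*, favours lactate formation, and the B subunit, encoded by *Ldhb*, favours the reverse reaction. Lactate crosses membranes with a proton through monocarboxylate transporters (MCTs), which need a glycoprotein chaperone, basigin (*Bsg*) or embigin (*Emb*), to reach the surface. Photoreceptors are known for converting most of their glucose to lactate in the presence of oxygen, and lactate is the source of the lactyl group on histones.

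The sequences around 4 start sites are shown first, 2 from promoters at which both marks rose with glucose and 2 from promoters at which H3K27Ac did not pass the test. Each window runs from 250 bases before to 50 bases after the RefSeq start (GRCm38.p6), 5′ to 3′ on the gene's strand, and capitals mark every match, on either strand, to GGGCGG (the GC box), CACGTG (an E-box), ACGTG and GCGTG (forms of the hypoxia response core) or TAATCC (a homeobox motif used by the photoreceptor factor CRX). ACGTG lies within CACGTG, and adjoining matches form 1 run of capitals.
Ldha, chr7:46845554-46845853, plus strand: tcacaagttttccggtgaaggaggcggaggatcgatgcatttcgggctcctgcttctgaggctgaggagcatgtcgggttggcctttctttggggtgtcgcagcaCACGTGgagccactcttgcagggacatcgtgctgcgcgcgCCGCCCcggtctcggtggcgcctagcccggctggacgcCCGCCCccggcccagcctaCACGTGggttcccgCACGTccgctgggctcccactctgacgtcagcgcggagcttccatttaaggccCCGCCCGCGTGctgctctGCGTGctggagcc
Slc16a1, chr3:104638414-104638713, plus strand: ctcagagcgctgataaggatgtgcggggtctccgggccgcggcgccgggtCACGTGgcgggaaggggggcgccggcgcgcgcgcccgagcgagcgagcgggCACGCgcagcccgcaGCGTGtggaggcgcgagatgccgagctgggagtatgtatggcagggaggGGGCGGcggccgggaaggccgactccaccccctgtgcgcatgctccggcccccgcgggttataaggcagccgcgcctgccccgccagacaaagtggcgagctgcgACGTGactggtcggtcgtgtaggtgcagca
Ldhb, chr6:142507908-142508207, minus strand: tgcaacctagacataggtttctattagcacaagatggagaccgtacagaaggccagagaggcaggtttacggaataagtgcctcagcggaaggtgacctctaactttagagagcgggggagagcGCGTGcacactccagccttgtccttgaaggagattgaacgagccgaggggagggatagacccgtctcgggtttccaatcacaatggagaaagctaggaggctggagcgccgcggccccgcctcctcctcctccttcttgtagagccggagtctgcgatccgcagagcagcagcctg
Slc16a8, chr15:79254699-79254998, minus strand: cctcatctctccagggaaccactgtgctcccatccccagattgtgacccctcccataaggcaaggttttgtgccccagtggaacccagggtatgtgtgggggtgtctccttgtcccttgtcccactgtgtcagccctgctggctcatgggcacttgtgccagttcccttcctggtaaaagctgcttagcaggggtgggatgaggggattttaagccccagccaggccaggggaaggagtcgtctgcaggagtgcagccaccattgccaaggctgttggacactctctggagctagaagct

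The *Ldha* window held CACGTG at 2 places, GGGCGG at 3 and GCGTG at 2, and the *Slc16a1* window held them at 1, 1 and 2 places. The *Ldhb* window had 1 GCGTG and no other match, and the *Slc16a8* window had none of the 5 motifs. Of 32851 RefSeq promoter windows, 7.15% contained CACGTG, 35.7% GGGCGG, 19.6% ACGTG, 32.4% GCGTG and 7.06% TAATCC. Windows were found for 6 of the 8 genes, among which *Slc16a3* had 1 GGGCGG and 2 ACGTG, *Emb* 1 GGGCGG, and a second *Ldha* start 2 GCGTG and 1 TAATCC. *Slc16a7* and *Bsg* had no window in the table used. The 300 bases of each *Ldha*, *Ldhb*, *Slc16a1* and *Emb* window lay within the gene's promoter peak, as did 283 bases of the *Slc16a8* window. Promoter peaks of the 8 genes had a median GC content of 58.4% against 57.5% over all promoter peaks. A match describes letters and not a bound site.

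Values are RPKM, which divides the reads of a peak by its length in kilobases and by the library's denominator in units of 1000000 reads. Denominators ranged from 1358008 to 5182766 reads for H3K18La and from 4324289 to 7424470 for H3K27Ac. Reads in all peaks took 11.8% to 12.01% of the denominator of H3K18La libraries at 5 mM and 31.2% to 35.0% at 25 mM, and 21.1% and 31.5% against 69.5% and 56.5% for H3K27Ac. The rise of signal in peaks was thus general, and each gene's change is given with its distance from the median of all tested peaks. Single peaks rested on few reads. The 21 peaks together held 35 to 108 reads in an H3K18La library at 5 mM and 152 to 253 at 25 mM, and 322 and 711 against 2396 and 1677 in the H3K27Ac libraries.

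Summed over the 21 peaks and per 1000000 of the denominator, H3K18La gave 22.8 ± 2.61 reads at 5 mM and 70.2 ± 23.98 reads at 25 mM (means ± SD, n = 3), which was 3.08 times as much. The same quotient over all peaks was 2.74. H3K27Ac went from 94.5 ± 28.3 to 279 ± 75.8 reads (means ± SD, n = 2), which was 2.96 times as much, against 2.39 over all peaks. When divided by the reads in peaks instead, these quotients were 1.11 for H3K18La, where the libraries of the 2 glucose levels overlapped, and 1.23 for H3K27Ac, where they did not.

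Which peaks changed with glucose was asked with limma on log2(RPKM + 0.5) for each mark, adjusting p-values over the peaks whose mean RPKM reached 1. A fold change on this scale understates the change of weak peaks, and that mean includes the 25 mM libraries, so a peak can enter through them alone. For H3K18La 14 of the 21 peaks were tested and 6 passed an adjusted p of 0.05 (limma), all higher at 25 mM. Of all 65614 peaks tested 37.3% were called higher, so the share among these genes was near the background. The 6 peaks belonged to *Ldha*, *Ldhb*, *Slc16a1* and *Bsg*. Among promoter peaks 4 of 6 tested were higher, against 33.3% of all promoter peaks tested. This count of 4 was 2 to 4 with 1 library left out, and 1 without the minimum RPKM or with reads thinned to the smallest denominator. In 7 of the 14 every 25 mM library lay above every 5 mM library, as in 53.4% of all tested peaks.

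For H3K27Ac 19 of the 21 peaks were tested and 7 passed (limma), all higher at 25 mM and in *Ldha*, *Slc16a1* and *Slc16a3*. Of all 72442 peaks tested 33.9% were called higher. Among promoter peaks 4 of 9 were higher, against 57% of all promoter peaks tested, so the share here was no larger than the background. Libraries did not overlap, with 25 mM above, in 12 of the 19 peaks, as in 69.3% of all tested peaks. The median log2 fold change of the tested peaks of these genes was 1.24 for H3K18La and 0.77 for H3K27Ac, and over all tested peaks 1.10 and 0.84. With 2 libraries per level, limma gave each H3K27Ac peak the spread shared by peaks of its level, and leaving out either 25 mM library left 0 of these 7 calls, with adjusted p-values from 0.0540 to 0.423 and log2 fold changes of 0.92 to 2.86. Without the minimum RPKM, and with reads thinned to the smallest denominator, 0 of the 7 passed either. Of all H3K27Ac peaks 10 passed without replicate 1 at 25 mM and 944 without replicate 2.

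**Figure D1:**
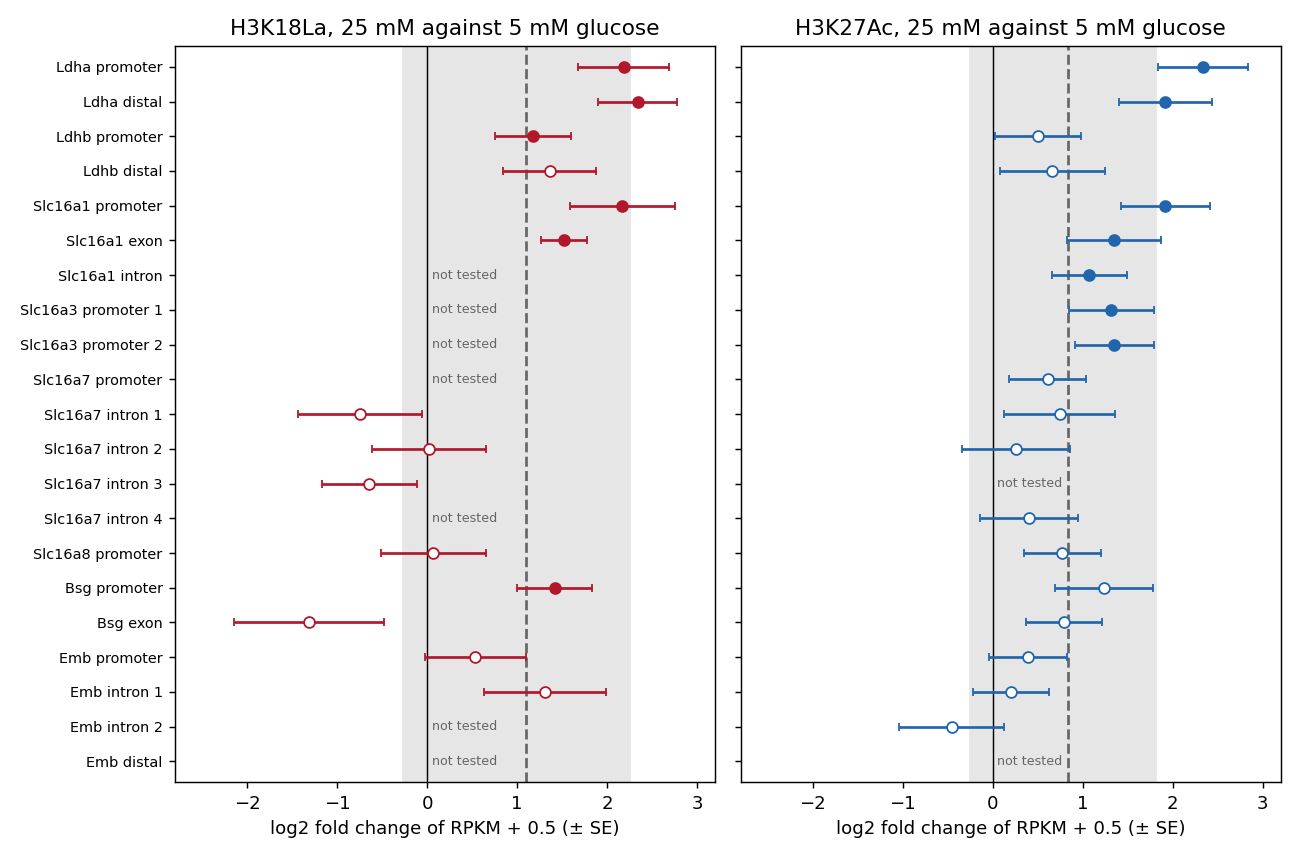
Log2 fold change of RPKM + 0.5 at 25 mM against 5 mM glucose for the 21 peaks, with H3K18La on the left and H3K27Ac on the right. Points with bars are estimates ± SE, filled where the adjusted p was under 0.05, the dashed line is the median of all tested peaks (1.10 and 0.84) and the grey band holds their 5th to 95th percentile. The Ldha and Slc16a1 promoters lie to the right of the dashed line for both marks, and the Bsg exon peak lies farthest to the left for H3K18La, unfilled.

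*Ldha*, whose product makes lactate from pyruvate, had the largest estimates of the 8 genes for both marks. Its promoter peak (chromosome 7, 46844959 to 46847151) spans the start of transcription. H3K18La there was 0.216, 1.14 and 1.007 RPKM in the 5 mM libraries, from 1, 13 and 3 reads, and 9.74, 3.25 and 3.84 RPKM at 25 mM, from 42, 29 and 25 reads. The libraries did not overlap, and replicate 1 at 25 mM was the highest. The log2 fold change was 2.19 ± 0.50 (SE, adjusted p = 0.00685, limma), 1.09 above the median of all peaks and larger than 95.6% of tested promoter peaks. The 5 mM mean was 0.789 RPKM, so this peak reached the minimum for testing only through the 25 mM libraries. Without the minimum RPKM the adjusted p was 0.0318 (limma).

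H3K27Ac at the *Ldha* promoter was 3.16 and 8.37 RPKM at 5 mM and 40.9 and 19.7 RPKM at 25 mM, from 30 and 114 against 645 and 320 reads. Both 25 mM libraries were above both 5 mM libraries. The log2 fold change was 2.34 ± 0.50 (SE, adjusted p = 0.000328, limma), 1.504 above the median of all peaks and larger than 99.1% of tested promoter peaks.

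The other *Ldha* peak (46838516 to 46839829) is intergenic and ends 5975 bp before the RefSeq start. Its H3K18La was 1.44, 1.91 and 0.560 RPKM at 5 mM and 13.6, 7.30 and 5.39 RPKM at 25 mM, and its H3K27Ac was 6.51 and 11.2 against 43.9 and 25.8 RPKM. Both marks were higher at 25 mM in every library. The log2 fold changes were 2.34 ± 0.44 (SE, adjusted p = 0.00241, limma) for H3K18La and 1.92 ± 0.52 (SE, adjusted p = 0.00354) for H3K27Ac, larger than 96.2% and 96.6% of all tested peaks. Over both peaks, *Ldha* took 3.44 ± 1.39 reads of H3K18La per 1000000 of the denominator at 5 mM and 23.8 ± 13.3 at 25 mM (means ± SD, n = 3). The H3K18La calls of both *Ldha* peaks held without any single library.

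*Ldhb* encodes the subunit more often tied to lactate use. At its promoter peak (chromosome 6, 142506997 to 142508381) H3K18La was 0.685, 0.975 and 2.13 RPKM at 5 mM and 2.94, 3.02 and 3.89 RPKM at 25 mM, from 2, 7 and 4 against 8, 17 and 16 reads. The libraries did not overlap, and the log2 fold change of 1.18 ± 0.43 (SE, adjusted p = 0.0480, limma) was 0.08 above the median of all peaks. This call rested on single libraries: with each of 5 libraries left out in turn the adjusted p lay between 0.0902 and 0.148, and it was 0.0165 without 5 mM replicate 3. Without the minimum RPKM it was 0.0766, with a pseudocount of 0.1 it was 0.0656 and with thinned reads 0.0693. H3K27Ac was 5.34 and 7.67 RPKM at 5 mM and 9.44 and 9.14 RPKM at 25 mM, with a log2 fold change of 0.50 ± 0.47 (SE, adjusted p = 0.402), larger than 14.8% of tested promoter peaks.

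A peak 22583 bp upstream of *Ldhb* held 1 or 2 reads of H3K18La in each 5 mM library and 5 to 12 at 25 mM. Its log2 fold change of 1.36 ± 0.52 (SE) had an adjusted p of 0.0573 (limma), which became 0.0318 without 5 mM replicate 3 and 0.00273 by voom. For H3K27Ac the value was 0.66 (adjusted p = 0.366) and the libraries overlapped.

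*Slc16a1* encodes MCT1, a widely expressed carrier for lactate and pyruvate. At its promoter peak (chromosome 3, 104637742 to 104639521) H3K18La was 1.86, 1.30 and 0 RPKM at 5 mM and 8.86, 4.56 and 3.60 RPKM at 25 mM. The 0 came from the library with the smallest denominator, in which 3 reads would be 1.24 RPKM, and the other libraries held 7, 12, 31, 33 and 19 reads. The log2 fold change was 2.17 ± 0.58 (SE, adjusted p = 0.0141, limma), larger than 95.4% of tested promoter peaks. Without replicate 1 at 25 mM it was 1.82 (adjusted p = 0.0751), and the call was also lost with a pseudocount of 0.1 (3.04, adjusted p = 0.0558), without the minimum RPKM (adjusted p = 0.0634) and with thinned reads (1.84, adjusted p = 0.122).

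H3K27Ac at the *Slc16a1* promoter was 4.16 and 6.33 RPKM at 5 mM and 26.0 and 16.6 RPKM at 25 mM, with a log2 difference of 1.92 ± 0.49 (SE, adjusted p = 0.00229, limma). That was 1.08 above the median of all peaks, and H3K18La was 1.07 above its own.

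An inner *Slc16a1* peak (104643742 to 104644426) lies in an intron of the gene and over the single exon of the sense intronic transcript Gm43581, which cannot be told apart from *Slc16a1* here. Its H3K18La fold change had the smallest SE of the 14 peaks tested, from 3.46, 3.38 and 3.22 RPKM at 5 mM and 11.1, 10.8 and 9.84 RPKM at 25 mM. The log2 fold change was 1.52 ± 0.26 (SE, adjusted p = 0.00150, limma), and the call held without any single library. H3K27Ac there was 8.10 and 16.5 against 26.8 and 34.02 RPKM, a log2 fold change of 1.35 (adjusted p = 0.0352), and without 5 mM replicate 1 it was 0.86 (adjusted p = 0.141). The third peak, in intron 4, had 0 to 5 reads of H3K18La in any library and was not tested for that mark. Its H3K27Ac log2 fold change was 1.08 (adjusted p = 0.0363), against 0.19 (adjusted p = 0.786) without 5 mM replicate 1 and 1.97 without 5 mM replicate 2.

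*Slc16a3* encodes MCT4, the low-affinity carrier of glycolytic cells that export lactate. Its 2 promoter peaks (chromosome 11, 120948499 to 120949634 and 120949920 to 120952437) are 285 bases apart, and the RefSeq window lies in the first. Both had too little H3K18La to be tested, with 0 to 2 reads per library at the first at 5 mM and 1 to 7 at 25 mM. H3K27Ac at the second was 3.95 and 4.92 RPKM at 5 mM and 11.9 and 11.6 RPKM at 25 mM, from 43 and 77 against 215 and 217 reads. The log2 fold changes were 1.317 ± 0.47 (SE, adjusted p = 0.0227, limma) at the second and 1.35 (adjusted p = 0.0124) at the first, which had an adjusted p of 0.0537 without 5 mM replicate 1. They were larger than 56.5% and 59.1% of tested promoter peaks, near the middle for this mark.

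*Slc16a7* encodes MCT2, the high-affinity carrier known from neurons. Its promoter peak (chromosome 10, 125387781 to 125390083), which also covers the unclassified transcript Gm47862, had 0.412, 0.419 and 0.320 RPKM of H3K18La at 5 mM and 2.21, 0.854 and 1.46 RPKM at 25 mM. These libraries did not overlap, but the mean fell short of the minimum for testing. H3K27Ac was 1.61 and 1.68 against 3.44 and 2.22 RPKM, a log2 fold change of 0.61 ± 0.43 (SE, adjusted p = 0.246, limma). The 4 intronic peaks held 0 to 4 reads of H3K18La in any library. None of those tested passed, and the strongest (125275280 to 125275544) had log2 fold changes of -0.75 for H3K18La and 0.74 for H3K27Ac, the latter from 0 to 5 reads per library and 1.83 (adjusted p = 0.0496, limma) without 5 mM replicate 1.

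*Slc16a8* encodes MCT3, known mainly from the pigment epithelium that was taken off here. Its single peak, at the promoter (chromosome 15, 79254716 to 79255347) and within an intron of Gm49486, had 0.750, 1.53 and 1.17 RPKM of H3K18La at 5 mM and 0.805, 3.11 and 0.533 RPKM at 25 mM. The libraries overlapped, from 1, 5 and 1 against 1, 8 and 1 reads, and the log2 fold change was 0.07 ± 0.58 (SE, adjusted p = 0.929, limma), lower than the median of all peaks. H3K27Ac was 1.46 and 1.53 against 3.30 and 2.56 RPKM, a log2 fold change of 0.77 (adjusted p = 0.140). Of the 7 pigment epithelium markers only *Best1* and *Rgr* had a promoter peak in the set, and *Rgr* is also known from Müller glia. Their summed H3K18La was 2.17 to 10.6 RPKM in the 5 mM libraries and at least 11.8 RPKM in each 25 mM library, and remaining pigment epithelium as a source of the *Slc16a8* signal was not tested.

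*Bsg*, the chaperone of MCT1 and MCT4, had the highest mean promoter RPKM of the 8 genes in each of the 4 groups. This lead is per length, as the *Bsg* peak was 764 bp wide and the *Ldha* promoter peak 2193 bp. The *Ldha* peak held more reads in every 25 mM library and in some 5 mM libraries. At the *Bsg* promoter peak (chromosome 10, 79704105 to 79704868) H3K18La was 3.72, 1.010 and 1.93 RPKM at 5 mM and 4.66, 7.08 and 7.06 RPKM at 25 mM, from 6, 4 and 2 against 7, 22 and 16 reads. The libraries did not overlap, and the log2 fold change was 1.42 ± 0.42 (SE, adjusted p = 0.0207, limma), 0.32 above the median of all peaks. Without 5 mM replicate 2 it was 1.06, and without 25 mM replicate 2 or 3 it was 1.33 in both cases, with adjusted p-values from 0.0694 to 0.0773, and the call was also lost without the minimum RPKM (adjusted p = 0.0579) and with thinned reads (1.10, adjusted p = 0.0684). H3K27Ac was 14.8 and 21.1 RPKM at 5 mM and 50.8 and 35.4 RPKM at 25 mM, with a log2 difference of 1.24 ± 0.54 (SE, adjusted p = 0.0602), which without 5 mM replicate 2 was 1.49 (adjusted p = 0.00631) and by voom 1.26 (adjusted p = 0.0283).

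A peak over exon 2 of *Bsg* (79708102 to 79708860) had 1.25, 0.254 and 5.82 RPKM of H3K18La at 5 mM and 0, 0.648 and 0.444 RPKM at 25 mM, from 2, 1 and 6 against 0, 2 and 1 reads. Its log2 fold change of -1.31 ± 0.83 (SE) did not pass (adjusted p = 0.223, limma), and the 5 mM mean rested on the 6 reads of replicate 3. H3K27Ac there was 2.44 and 2.33 against 4.21 and 4.79 RPKM, a log2 fold change of 0.79 (adjusted p = 0.126).

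*Emb*, the chaperone preferred by MCT2, had no peak past the test for either mark. Its promoter peak (chromosome 13, 117220314 to 117221390) also covers an exon of Gm17509. H3K18La was 0.440, 0.896 and 1.37 RPKM at 5 mM and 1.89, 2.28 and 0.626 RPKM at 25 mM, overlapping, with a log2 fold change of 0.54 ± 0.56 (SE, adjusted p = 0.448, limma), and 0.28 to 0.94 with 1 library left out. H3K27Ac was 1.29 and 1.94 against 2.84 and 1.75 RPKM, also overlapping, with 0.39 ± 0.44 (SE, adjusted p = 0.484), larger than 11.3% of tested promoter peaks, and 0.11 to 0.68 with 1 library left out. The strongest intronic peak (117235512 to 117236393) had an H3K18La log2 fold change of 1.31 (adjusted p = 0.142), which without 25 mM replicate 3, where it held 1 read, was 2.12 (adjusted p = 0.0185) and without 25 mM replicate 1 was 0.70 (adjusted p = 0.477). The other 2 *Emb* peaks held at most 4 reads in any library.

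**Figure D2:**
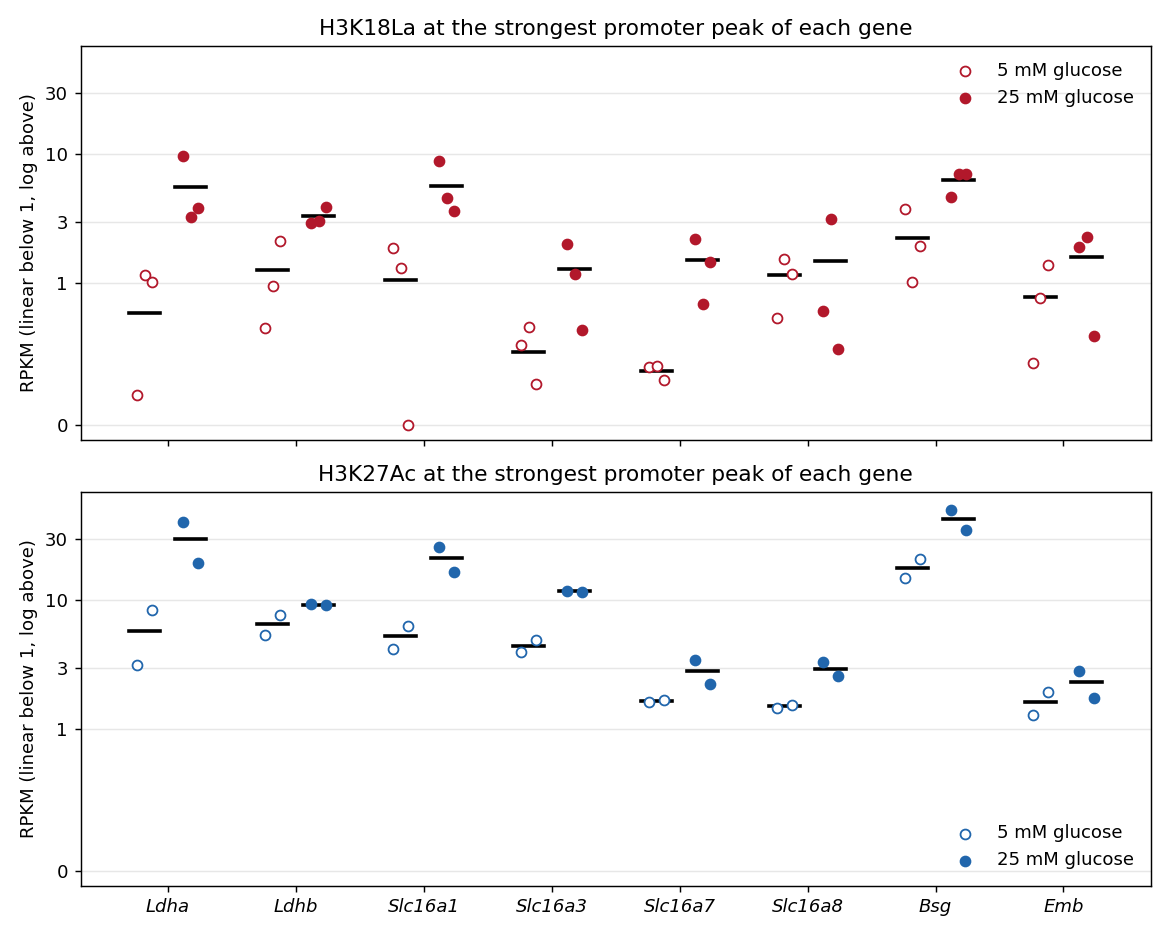
RPKM of H3K18La (upper panel) and H3K27Ac (lower panel) at the promoter peak with the highest mean of each gene, one point per library, open at 5 mM and filled at 25 mM glucose, with a bar at the group mean. The axis is linear below 1 and logarithmic above. Filled points lie above all open points for H3K18La at Ldha, Ldhb, Slc16a1, Slc16a7 and Bsg, and mix with them at Slc16a3, Slc16a8 and Emb.

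Levels per length were also ordered between genes, at the strongest promoter peak of each. For H3K18La at 5 mM *Bsg* led with 2.22 ± 1.38 RPKM (SD, n = 3), *Ldha* stood below 5 other genes with 0.789 ± 0.50 and *Slc16a7* last with 0.383 ± 0.06, and the ranges of all neighbours overlapped. At 25 mM the order was *Bsg* (6.27 ± 1.39), *Slc16a1* (5.67 ± 2.80), *Ldha* (5.61 ± 3.59), *Ldhb* (3.28 ± 0.53) and then *Emb*, *Slc16a7*, *Slc16a8* and *Slc16a3*, between 1.60 and 1.29 RPKM. The one pair of neighbours without overlap was *Ldhb* and *Emb*. For H3K27Ac at 25 mM *Bsg*, *Ldha* and *Slc16a1* led with 43.1, 30.3 and 21.3 RPKM, followed by *Slc16a3* with 11.7, *Ldhb* with 9.29 and *Slc16a8*, *Slc16a7* and *Emb* at 2.93 or less. The ranges of *Bsg* and *Ldha*, of *Ldha* and *Slc16a1*, of *Slc16a8* and *Slc16a7* and of *Slc16a7* and *Emb* overlapped, so the order within these pairs holds for means alone. At 5 mM the H3K27Ac order was *Bsg* with 17.95 RPKM, which overlapped no other gene, then *Ldhb* (6.51), *Ldha* (5.77), *Slc16a1* (5.24) and *Slc16a3* (4.44), whose neighbours overlapped, and *Slc16a7*, *Emb* and *Slc16a8* at 1.64 or less. The *Bsg* promoter exceeded 98.2% of promoter peaks in H3K27Ac at 25 mM and 90.6% in H3K18La, and the *Ldha* promoter 94.1% and 88.6%.

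Whether the glucose response differed between the marks was tested as an interaction over all 10 libraries. Of 13 peaks of these genes tested, 0 passed (limma), as did 0 of all 57421 peaks (0%), of which 2893 had an unadjusted p under 0.05, and voom also called 0. Among the 13 none had an unadjusted p under 0.05. The smallest, 0.0562 (adjusted p = 0.887), was that of the *Bsg* exon peak. The SEs of the differences were 0.48 to 1.22 on the log2 scale, and the estimates (H3K18La minus H3K27Ac) ran from -2.11 to 1.11, so differences of that size did not pass this test.

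The calls depended on how libraries were scaled. Scaling to the reads in peaks lowered the median log2 fold change of all tested peaks by 1.07 for H3K18La and by 1.06 for H3K27Ac, and 0 peaks of either mark passed (limma), with 7636 and 12491 at an unadjusted p under 0.05. On that scale the *Ldha* promoter had 1.10 (adjusted p = 0.457, limma) and 1.13 (adjusted p = 0.146), and *Slc16a1* 1.14 and 0.71. Centring on the median of tested peaks gave *Ldha* 1.27 and 1.66, the latter the one call among these genes, while *Slc16a8* and *Emb* turned negative for H3K18La and *Ldhb*, *Slc16a7* and *Emb* for H3K27Ac, none past the test on either scale. Among the promoter peaks tested, *Ldha* and *Slc16a1* had the largest estimates under the 4 scalings drawn, for both marks. Centred on the weakest decile of peaks, 20391 H3K18La and 29351 H3K27Ac peaks passed the test (limma). Of these genes' peaks 5 and 8 passed, against 6 and 7 in the reported fits, with *Ldha* at 2.21 and 2.34 and *Slc16a1* at 2.19 and 1.92. They were not all the same peaks, and the H3K18La call at the *Ldhb* promoter was lost (1.20, adjusted p = 0.110, limma).

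**Figure D3:**
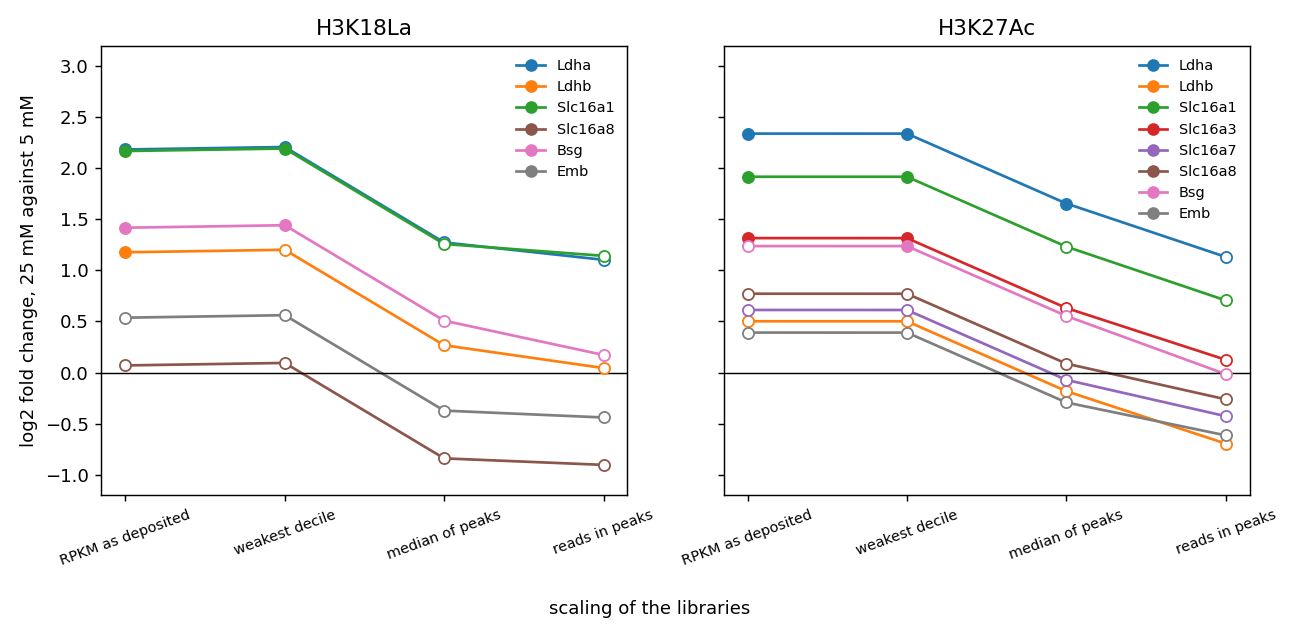
Log2 fold change at 25 mM against 5 mM glucose of the strongest promoter peak of each tested gene under 4 scalings of the libraries, for H3K18La (left) and H3K27Ac (right), filled where the adjusted p was under 0.05. From RPKM as deposited to reads in peaks Ldha falls from 2.19 to 1.10 and from 2.34 to 1.13, and no point is filled at the right end of either panel.

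The strongest promoter peaks of related genes were set beside these 8. The lists were drawn up by function but with earlier results of these data known, and a description by counts is given without a test over the list. Over all genes, 3413 of 10477 strongest promoter peaks tested rose for H3K18La with a median log2 fold change of 1.05, and 7608 of 12867 rose for H3K27Ac with 1.25. Of the 8 genes here, 4 of 6 tested rose for H3K18La (median 1.30) and 3 of 8 for H3K27Ac (median 1.01).

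Of 17 glucose uptake and glycolysis genes, 11 of 16 tested rose for H3K18La (limma) with a median of 1.341, and 15 of 17 rose for H3K27Ac with 1.60. The largest H3K18La changes were those of *Eno1* (2.08, adjusted p = 0.00375) and *Gpi1* (1.72, adjusted p = 0.00679), an enolase and the glucose phosphate isomerase. The smallest were those of *Pfkm* (-0.23, adjusted p = 0.785), the muscle phosphofructokinase, and *Gapdh* (0.81, adjusted p = 0.144).

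Of 13 genes of pyruvate use, 3 of 12 tested rose for H3K18La (median 0.96) and 9 of 12 for H3K27Ac (median 1.46). The pyruvate dehydrogenase kinases *Pdk3* (1.93, adjusted p = 0.0210) and *Pdk2* (1.52, adjusted p = 0.0209), which restrain entry of pyruvate into the citric acid cycle, had the largest H3K18La changes. *Gpt* (-0.51, adjusted p = 0.557) and pyruvate carboxylase *Pcx* (-0.42, adjusted p = 0.625) had the smallest.

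Among 7 other lactate genes 3 had a promoter peak. *Nptn*, neuroplastin, a relative of basigin that also escorts MCTs, rose for both marks (1.11, adjusted p = 0.0465, and 1.56, adjusted p = 0.0118, limma). *Ldhc*, the testis lactate dehydrogenase next to *Ldha*, had 1.69 (adjusted p = 0.0552) for H3K18La and rose for H3K27Ac by 1.31 (adjusted p = 0.0122), and *Ldhd* had 0.37 (adjusted p = 0.687) and 0.76.

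Of 10 other SLC16 genes, 2 of 6 tested rose for H3K18La and 3 of 7 for H3K27Ac. *Slc16a6* had the largest H3K18La change (2.55, adjusted p = 0.00190, limma), followed by *Slc16a10* (1.343, adjusted p = 0.0863). *Slc16a11* (0.92, adjusted p = 0.283) and *Slc16a13* (1.12, adjusted p = 0.0959) had the smallest.

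**Figure D4:**
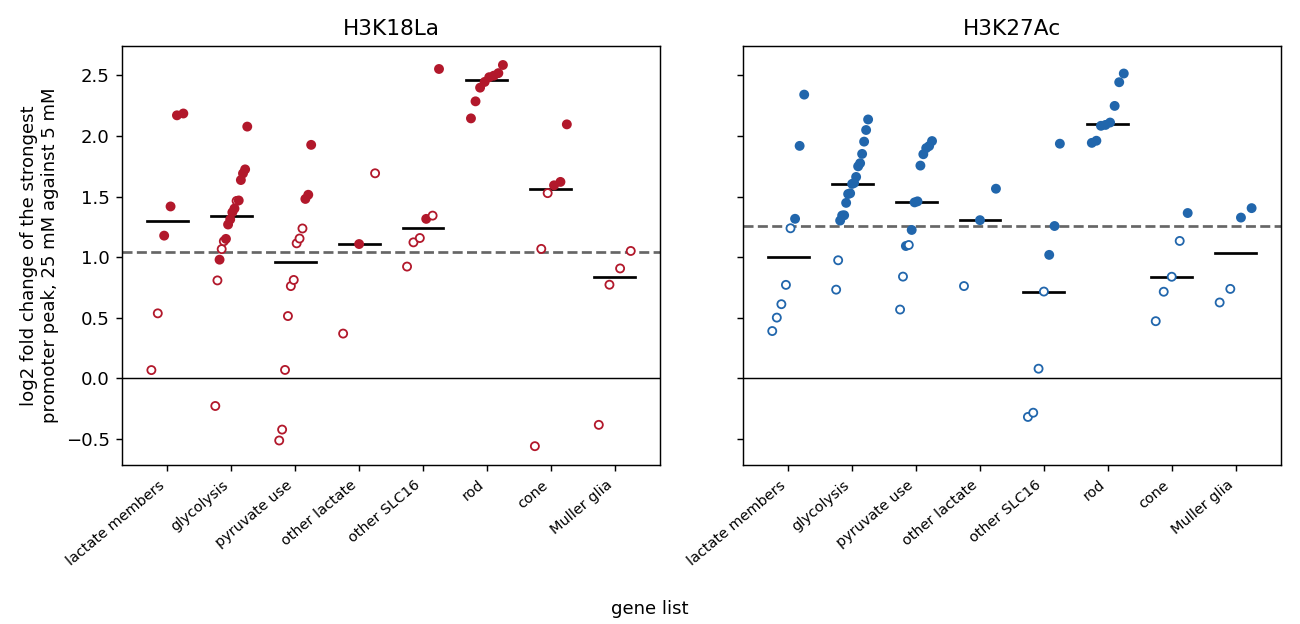
Log2 fold change at 25 mM against 5 mM glucose of the strongest promoter peak of each gene, by list, for H3K18La (left) and H3K27Ac (right), one point per gene, filled where the adjusted p was under 0.05. Black bars are list medians and the dashed line is the median over all genes (1.05 and 1.25). All 8 rod genes are filled in both panels, the lowest at 2.14 and 1.94.

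Markers of retinal cell types moved unequally in the same libraries. All 8 rod markers rose for H3K18La (median 2.47) and for H3K27Ac (median 2.10), and their summed level was 12.8 to 16.9 RPKM at 5 mM and 61.8 to 149 at 25 mM for H3K18La, and 52.7 and 94.4 against 250.3 and 450.0 for H3K27Ac. Of 6 cone markers 3 rose for H3K18La and 1 of 5 for H3K27Ac, and of 4 tested Müller glia markers 0 and 2 rose. Each of 3 bipolar cell markers rose for H3K27Ac and had too little H3K18La to be tested, and the 1 amacrine marker tested rose for both marks. Of the pigment epithelium markers *Rgr* rose for both marks. None of the tested horizontal cell, endothelial or microglial markers passed, and no ganglion cell marker reached the minimum. The fold changes of *Ldha* and *Slc16a1* lay within the range of the rod markers for H3K18La, and for H3K27Ac that of *Ldha* did and that of *Slc16a1* (1.92) was just under the lowest rod marker (*Nr2e3*, 1.94). The part of rod content or rod chromatin in the changes at these genes was not tested.

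The 5 genes whose strongest promoter peak followed that of *Ldha* most closely over the 10 libraries, by Pearson r of log2(RPKM + 0.5) among 12649 other genes, were *Gpr146* (0.998), *Eps15* (0.996), *D830036C21Rik* (0.993), *Wdtc1* (0.991) and *Fgf9* (0.989). Among the genes here *Slc16a7* had 0.94, *Ldhb* and *Slc16a1* 0.88, *Slc16a3* 0.88, *Bsg* 0.83, *Emb* 0.76 and *Slc16a8* 0.54. All these points share the difference in level between the marks and the general rise with glucose, so high values are common, and that of *Slc16a1* was at or above those of 62.4% of genes.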

How the data were processed

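Per the labels and the study's methods, the authors aligned paired-end CUT&Tag reads to GRCm38, called peaks by MACS outside blacklisted regions, and used ChIPseeker 1.34.1 for annotation, with promoters from -1000 to 500 bp of a start. The authors deposited RPKM per peak and library. All values were whole multiples of 1 read (100%, tolerance 0.01), so reads and denominators were recovered, and whether normalization factors enter the denominators is not given in the sources used here. A deposited table of the authors' own H3K18La fold changes and p-values was not used. Groups came from the labels.

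limma 3.58.1 in R 4.3.3 (lmFit, eBayes with trend) was fitted to log2(RPKM + 0.5) for peaks whose mean RPKM reached 1, each mark alone and all 10 libraries for the interaction, with Benjamini-Hochberg adjustment over all peaks tested and a threshold of 0.05. The authors used a count model (edgeR), which RPKM values do not suit. Voom on the recovered reads was run as an alternative. Over peaks with at least 10 reads, every replicate pair differed by more than counting noise, by little for H3K18La at 5 mM (chi-square per degree of freedom 1.04 to 1.06) and by more in the other groups (1.14 to 2.87). The sources call the replicates biological and do not say whether libraries came from separate animals, so p-values measure only the spread between these libraries. Where no read was found, up to 3 reads are allowed for, which covers counting error only. The fit was tested on simulated data, in which many true changes of few-fold size also missed the threshold. Only a small share of peaks was changed there, without a general rise, so the adjustment was stricter than in the data. The share missed in the simulation thus does not carry over to the reported fits. A peak that did not pass may still have changed. RefSeq promoter windows matched the GRCm38.p6 sequence. The text names every promoter peak of each gene, its strongest other peak, peaks past the threshold, the 5 genes most like *Ldha*, and the 2 largest and 2 smallest H3K18La changes of each gene list. Members and lists were chosen with earlier results of these data known. Python 3.11.15 with pandas 2.3.3 and pysam 0.24.0 read the files.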

Additional observations from a re-analysis of the deposited data

How the results depend on the processing

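The cause of the shifts below was not tested. Scaling to reads in peaks left 0 calls for both marks, over all peaks and over these genes (peaks and promoter peaks alike), with 7636 and 12491 at an unadjusted p under 0.05 (limma). Centring on the median left 1040 H3K18La and 1144 H3K27Ac peaks, with 0 and 1 of these genes' peaks. No filter on low values gave 3 H3K18La calls here (1 promoter) and 0 for H3K27Ac overall (31013 unadjusted). Thinning reads to the smallest denominator gave 13355 H3K18La peaks with 1 promoter here, and 0 for H3K27Ac (26606 unadjusted). By voom 29676 and 25420 peaks passed. Averaging 5 mM replicates 2 and 3 gave 24431 H3K18La peaks and 6 here. A pseudocount of 0.1 left 2 H3K18La promoters. Replicate numbers were not used to pair the libraries. Within a mark, deviations correlated at 0.013 to 0.029 between same-numbered libraries and at -0.033 to 0.017 between the others. In this, 2 of the H3K18La libraries were closest to another number. Between the marks, same-numbered libraries correlated at -0.015 and -0.00081 at 5 mM and at 0.19 and 0.073 at 25 mM, and not every pair was over 0.1. Differently numbered libraries of the marks were not compared, so whether libraries were paired cannot be told from these values. The replicate block gave 5 H3K18La calls here, and for H3K27Ac 7897 peaks with 2 calls here, both promoters. The interaction gave 0 under all alternatives. The ratio of reads in the 21 peaks was 1.11 and 1.23 over reads in all peaks.

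Leaving out 1 library gave 15440 to 24137 H3K18La peaks, 4 to 7 here and 2 to 4 promoters. For H3K27Ac it gave 10 to 38689 peaks, 0 to 8 here and 0 to 5 promoters.

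Among the named peaks, signs turned only at those that passed neither in the reported fit nor in the fit that turned them. Scaled to reads in peaks, H3K18La was -0.44 at the *Emb* and -0.91 at the *Slc16a8* promoter, and H3K27Ac was -0.70 and -0.20 at the *Ldhb* promoter and upstream peak, -0.016 and -0.32 at the *Bsg* promoter and exon, -0.068 and -0.43 at the *Slc16a7* intron and promoter, -0.62 and -0.88 at the *Emb* promoter and intron and -0.26 at *Slc16a8*. Median-centred, the values were -0.37 (*Emb*) and -0.84 (*Slc16a8*) for H3K18La, and -0.18 and -0.020 (*Ldhb*), -0.072 (*Slc16a7* promoter), -0.29 and -0.48 (*Emb*) for H3K27Ac. Thinned, *Slc16a8* had -0.90 for H3K18La. Without 1 library, H3K18La ranged from -0.48 to 0.43 at *Slc16a8* and from -1.53 to 0.024 at the *Slc16a7* intron, and H3K27Ac from -0.16 to 1.49 upstream of *Ldhb*, from -0.34 to 1.83 at the *Slc16a7* intron and from -0.035 to 0.44 at the *Emb* intron. Reads were too few for firm statements at most non-promoter peaks, and leaving out a library from 2 assumes that the lone one varies like the others.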
